A study of Homo sapiens with 6 samples.

Results

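Mitochondrial ribosomal protein genes here are the nuclear genes named MRPL or MRPS followed by a number, which encode proteins of the ribosome inside mitochondria. They were taken by symbol from the probe sets naming 1 gene on an Affymetrix HG-U133 Plus 2.0 array, which gave 75 of the 19775 genes on it, 48 of them MRPL and 27 MRPS, read by 140 probe sets. Where several probe sets named a gene, the one with the highest mean on the 6 arrays was used. The cells were OCI-AML3, 1 established line of acute myeloid leukaemia that carries a mutated NPM1 gene. They were given the vehicle DMSO (3 samples) or 1 µM Vorinostat dissolved in DMSO (3 samples), both for 24 h, and RNA of the whole culture was hybridised. Vorinostat, also called SAHA, inhibits histone deacetylases, the enzymes that remove acetyl groups from histones and other proteins. Beyond the drug no other agent, genotype or time separates the groups, and both groups carry replicate numbers 1, 2 and 3.

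The mitochondrial ribosome translates the few messenger RNAs of the mitochondrial genome, all of which encode subunits of the respiratory chain and the ATP synthase. Its RNAs come from mitochondrial DNA, whereas every one of its proteins is made in the cytosol and imported. Some of these proteins have counterparts in bacterial ribosomes and others occur only in mitochondria. Leukaemic myeloid cells are known to rely on mitochondrial translation for respiration.

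The promoters of these genes are shown first, since the choice by symbol did not use their sequence. RefSeq promoter windows (GRCh38.p14, 250 bases before to 50 after the first listed start) matched 67 of the 75 genes. The core word of ETS factors such as GABP, the nuclear activator of many mitochondrial genes, is CCGGAAG, and it was searched on both strands. It was present in 28 of 67 members, 41.8%, against 10.7% of all 27305 promoters and 23.6% of the promoters of genes with a mean of at least log2 3 on these arrays. The YY1 word of 11 letters, also searched on both strands, was present in 9 members, 13.4%, against 0.916% of all promoters and 2.76% of those of the brighter genes. The NRF1 word of 10 letters, which allows any base at a single place, was present in 8 members, 11.9%, against 6.28% and 14.4%. NRF1 is an activator of respiratory genes. The GC box GGGCGG of SP1 was present in 40 members, 59.7%, against 44.6% and 72.1%. These shares are descriptions of letters in a window, not of bound sites. Of the 17 matched members that were lower with Vorinostat in each replicate number, 6 held the ETS word (35.3%), 6 the YY1 word (35.3%), 10 the GC box (58.8%) and 0 the NRF1 word, beside 41.8%, 13.4%, 59.7% and 11.9% of all matched members. This subset was chosen by its values on these arrays, and 8 of the 67 members held none of the 4 words.

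Promoter stretches of 4 members are printed 5′ to 3′ on the gene's own strand, which is the minus strand for each, ending at the base before the start. Capitals mark the ETS, NRF1 and YY1 matches, which do not overlap, and GC boxes are not marked. MRPL27 is shown as the member with the lowest difference, and its stretch stops where the oppositely directed neighbour EME1 begins. MRPS10 and MRPS18A are shown as members with the ETS word close to the start, and MRPL36, the member with the highest mean value, for its NRF1 and YY1 words, in that order, the YY1 word lying on the opposite strand. MRPS10 and MRPS18A also hold the YY1 word past the start, outside the printed stretches.
MRPL27, chr17:50373185-50373228: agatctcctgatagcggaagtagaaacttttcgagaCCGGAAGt
MRPS10, chr6:42217862-42217981: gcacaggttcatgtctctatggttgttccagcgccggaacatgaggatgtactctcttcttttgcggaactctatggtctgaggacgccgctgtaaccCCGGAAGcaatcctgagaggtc
MRPS18A, chr6:43687792-43687911: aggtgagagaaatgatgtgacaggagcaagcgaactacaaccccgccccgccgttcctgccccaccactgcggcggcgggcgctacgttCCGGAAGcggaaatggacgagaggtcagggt
MRPL36, chr5:1799838-1799957: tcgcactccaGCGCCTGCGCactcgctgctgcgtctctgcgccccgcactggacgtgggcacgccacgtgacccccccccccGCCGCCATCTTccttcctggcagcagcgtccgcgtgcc

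The arrays stood apart by replicate number before any effect of the drug was considered. The 95th percentile of the log2 values was 5.78 on DMSO replicate 1 and 5.58 on Vorinostat replicate 1, and between 3.01 and 3.48 on the other 4 arrays. The difference between 3′ and 5′ control probe sets, a measure of RNA integrity, was 2.70 to 4.51 on the log2 scale for ACTB. For GAPDH it was 4.02 on DMSO replicate 3 and 0.99 to 2.26 on the other arrays. Of 13 myeloid markers measured, 7, 4 and 4 lay above log2 3 on the DMSO arrays and 7, 3 and 4 on the Vorinostat arrays. The granule genes CTSG and LYZ and the factor CEBPA were above it on all 6, ELANE on 5, and ANPEP, MPO, CSF1R, CD14, ITGAM and SPI1 on none. The summed level of the list was 38.5 to 59.5 with DMSO and 31.3 to 55.6 with Vorinostat. Of 16 markers of lymphoid, erythroid, epithelial, stromal and endothelial cells, at most 2 were above log2 3 on any array, with a summed level of 28.5 to 32.7 and 32.7 to 34.1. The part of these array properties in the results was not tested.

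The members followed the array. Their median log2 value was 4.99, 2.95 and 2.27 on DMSO replicates 1, 2 and 3, and 4.90, 2.23 and 2.55 on Vorinostat replicates 1, 2 and 3. In both groups 71 of the 75 genes were highest on replicate 1, or 94.7%, against 35.1% of all genes and 88.4% of genes with a mean of at least log2 3. DMSO replicate 1 exceeded the mean of DMSO replicates 2 and 3 by a median of 2.11, from 0.12 to 5.37. The number of members above log2 3 was 68, 36 and 17 with DMSO and 65, 14 and 24 with Vorinostat. Only MRPL14, MRPL24, MRPL33, MRPL36, MRPL47, MRPL52, MRPS5, MRPS14 and MRPS15 were above it on every array, 9 of 75 against 5.84% of all genes. MRPL2, MRPL38, MRPL50, MRPL54, MRPL55 and MRPS31 were above it on none, 6 of 75 against 66.3%.

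**Figure D1:**
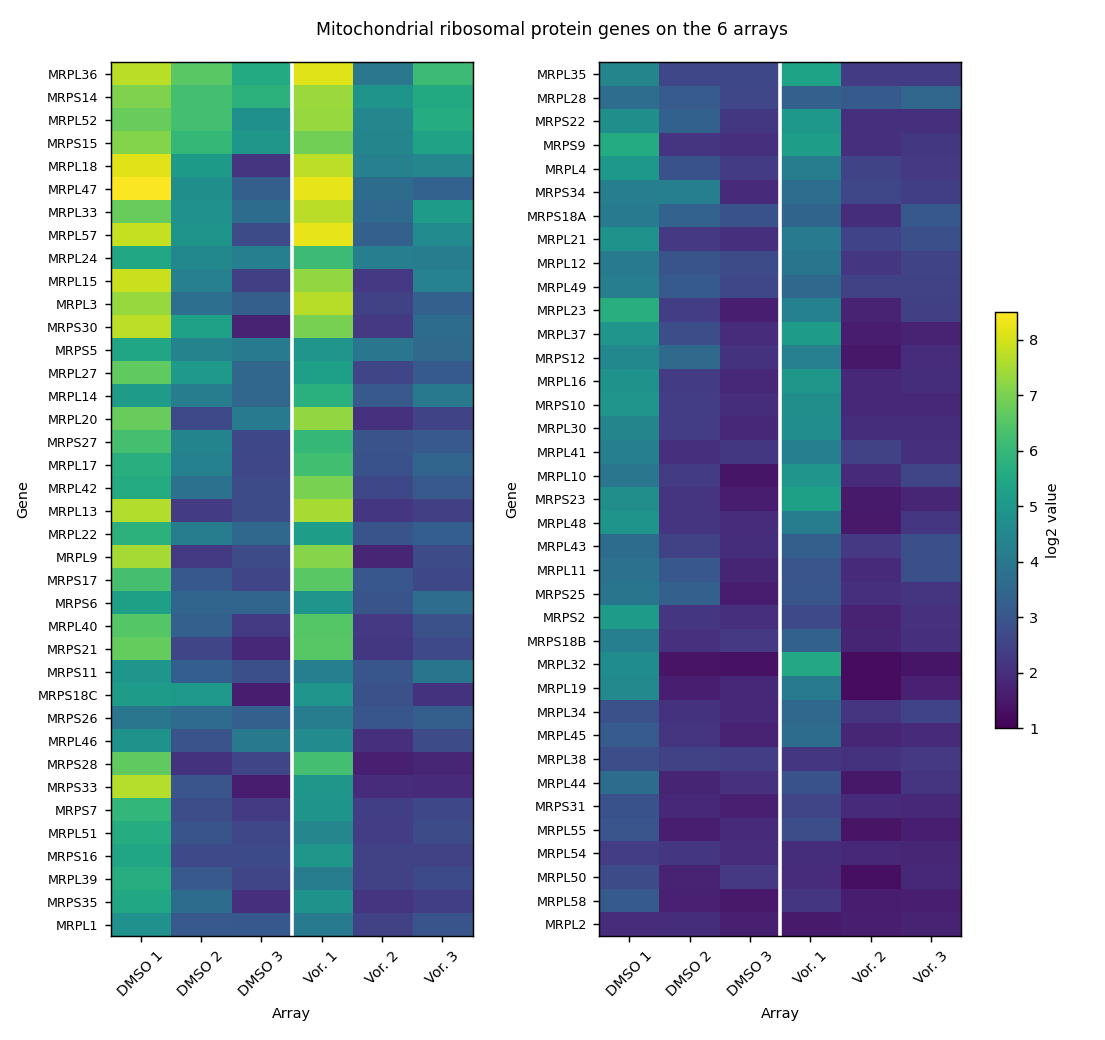
Log2 value (colour) of each of the 75 genes (rows, ordered by mean) on the 6 arrays (columns, a white line between DMSO and Vorinostat). The replicate 1 columns of both groups are bright throughout, with member medians of 4.99 and 4.90, while the other 4 columns have medians of 2.23 to 2.95.

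Vorinostat against DMSO gave small differences for these genes, most of them below 0 and nearly all smaller than their standard error. The log2 difference (Vorinostat minus DMSO) was negative for 55 genes and positive for 20, with a median of -0.31 and a range from -1.43 for MRPL27 to 0.55 for MRPL10. Negative differences thus made up 73.3% of the members, against 53.1% of all genes and 68.8% of the 3379 genes with a mean of at least log2 3, whose median was -0.23. The median standard error of a member was 1.00, and 68 of the 75 differences were smaller than their own standard error. The share of all genes with such differences is not given, so this count describes no trait of the members alone. In RNA of whole cultures, fewer cells of a kind and less RNA per cell cannot be told apart. Without DMSO replicate 1 the members' median turned to 0.48 and without Vorinostat replicate 2 to 0.18. It was -0.77 without DMSO replicate 3, -1.12 without Vorinostat replicate 1 and -0.03 without Vorinostat replicate 3. Its sign and size thus depended on which arrays were compared. Leaving out 1 array leaves the groups with unlike replicate numbers, whose brightness differed. Without both number 1 arrays, which keeps the numbers matched, the median was -0.25.

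No member passed the limma test after Benjamini-Hochberg adjustment over all 54613 probe sets, where the lowest adjusted p of any probe set was 1.00. At unadjusted p under 0.05, 1 member was lower and 0 were higher, against 0.389% and 0.602% of all genes. At the study's threshold of over 2-fold with unadjusted p under 0.05 the count was 0 in each direction, against 0.0506% and 0.0455% of all genes. In both directions this limma fit called far fewer genes than the paper reports at that threshold. The member counts and shares given here thus describe this fit and not the paper's own calls. The cause of that gap was not tested. The methods' t-test called 0 members lower and 0 higher at unadjusted p under 0.05, against 0.673% and 0.855% of genes. MRPL27 and MRPS33 were over 2-fold lower in size alone, and the share of all genes past that size is not given.

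**Figure D2:**
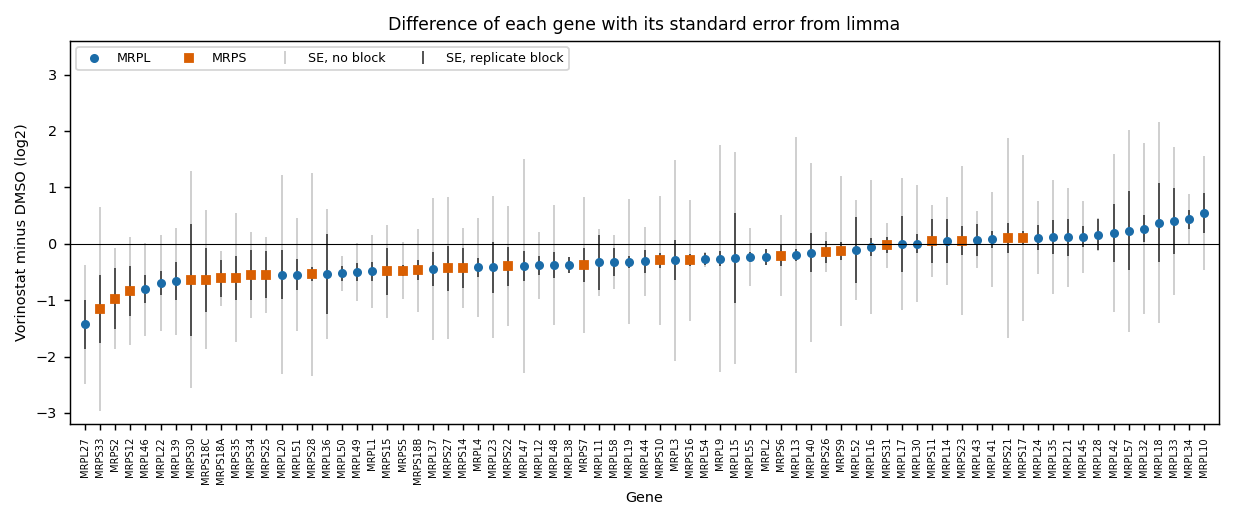
Log2 difference, Vorinostat minus DMSO, of each of the 75 genes in order, with the limma standard error without (light) and with (dark) the replicate number as a block. 55 points lie below 0, and the light bars reach across 0 for 68 genes.

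The member called without the block was MRPL38 (chromosome 17), a large subunit protein found only in mitochondrial ribosomes. Its log2 value was 2.80, 2.48 and 2.37 on DMSO replicates 1, 2 and 3. With Vorinostat it was 2.19, 2.09 and 2.25. The 3 Vorinostat values all lay below the 3 DMSO values, which also held for 1.95% of all genes, and MRPL38 was the only member whose groups did not overlap. The difference was -0.38 (SE 0.14, limma unadjusted p = 0.043, adjusted p = 1.00). An exact permutation of 3 against 3 arrays cannot give a two-sided p below 0.1. All 6 values were below log2 3, and its other probe set gave a difference of 0.00 (SE 0.13). Leaving out any array other than DMSO replicate 3 raised the unadjusted limma p above 0.05.

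Within replicate numbers the members did not move alike. Vorinostat was below DMSO for 50 of 75 genes in number 1, for 71 in number 2 and for 27 in number 3, with median differences of -0.34, -0.60 and 0.12. MRPL40 and MRPL41 had equal deposited values on both arrays of number 1. The corresponding shares of all genes were 51%, 55.8% and 45.3%, against 66.7%, 94.7% and 36% of the members. Of genes with a mean of at least log2 3, 58.7%, 85.2% and 34.3% were lower, with medians of -0.15, -0.73 and 0.20. The commonest pattern was lower in numbers 1 and 2 and higher in number 3, seen in 29 members or 38.7%, against 16.5% of all genes and 31.9% of the brighter ones. Another 15 members, or 20%, were higher in numbers 1 and 3 and lower in number 2, against 13.5% of all genes and 22.7% of the brighter ones.

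**Figure D3:**
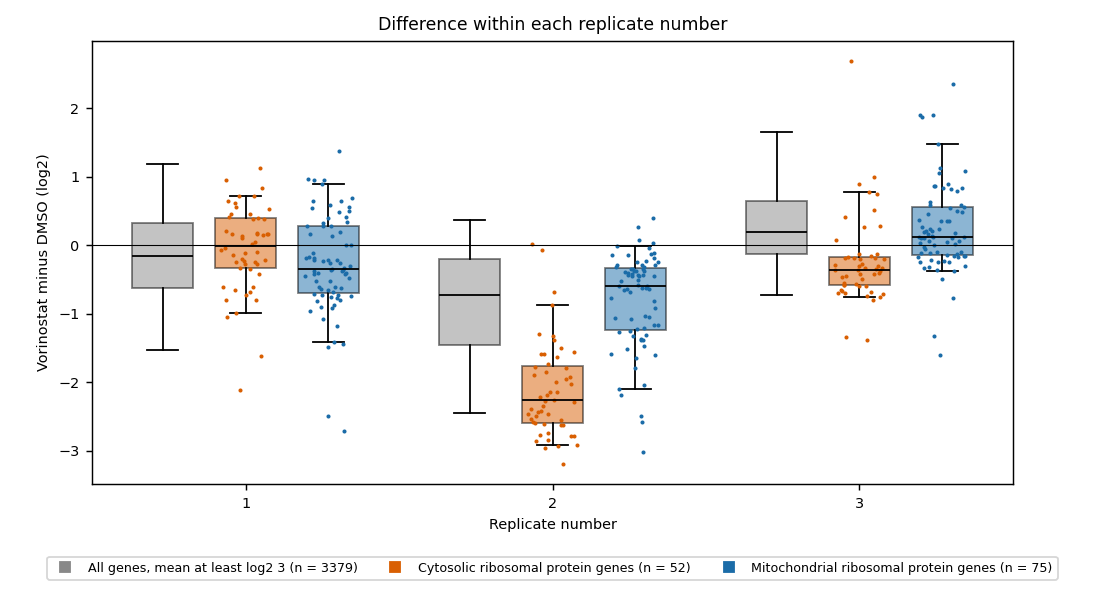
Log2 difference, Vorinostat minus DMSO, within each replicate number for genes with a mean of at least log2 3 (grey), cytosolic (orange) and mitochondrial (blue) ribosomal protein genes. Boxes span the quartiles with the median as a line, whiskers the 5th to 95th percentile, and points are genes. The mitochondrial set lies lowest in number 2 (median -0.60) and above 0 in number 3 (median 0.12).

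A lower value with Vorinostat in every replicate number was measured for 19 members, or 25.3%, against 13.7% of all genes and 19.5% of the brighter ones. These were MRPL1, MRPL4, MRPL12, MRPL13, MRPL19, MRPL22, MRPL27, MRPL38, MRPL46, MRPL49, MRPL50, MRPL54, MRPL55, MRPS5, MRPS10, MRPS12, MRPS16, MRPS18B and MRPS28. Among members with a mean of at least log2 3 they were 11 of 50, or 22%. A higher value in every number was measured for MRPL34 alone, 1.33% of the members, against 13% of all genes and 5.71% of the brighter ones. With values under log2 3 set to 3, 4 members were lower in every number and 0 higher, and the share of all genes in that setting is not given.

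The replicate numbers were taken to pair the arrays, although the values did not tell numbers 2 and 3 apart. A limma fit with the number as a block reduced the median standard error of the members from 1.00 to 0.28. It called 10 members lower at unadjusted p under 0.05, or 13.3%, against 3.12% of all genes, and 0 higher, against 2.25%. Of the 50 members with a mean of at least log2 3, 7 were lower, or 14%, against 9.35% of such genes. At over 2-fold the block called MRPL27 alone, or 1.33% of members, against 0.632% of all genes and 3.26% of the brighter ones. No member passed adjustment in this fit either, and the lowest adjusted p was 0.887.

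**Figure D4:**
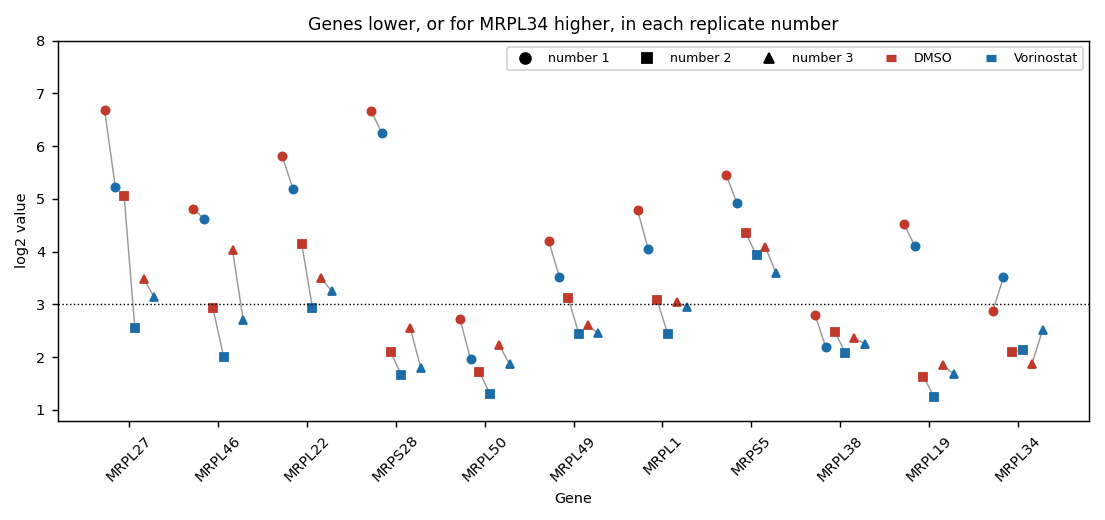
Log2 value of the 10 genes lower at unadjusted p under 0.05 with the block, and of MRPL34, on each array. A line joins DMSO (red) and Vorinostat (blue) of one replicate number and the dotted line is log2 3. Each line runs downward for the 10 genes and upward for MRPL34, by 0.03 in number 2.

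MRPL27 (chromosome 17) encodes the counterpart of bacterial L27, which reaches towards the site where peptide bonds form. Its log2 value was 6.68, 5.05 and 3.49 with DMSO on replicates 1, 2 and 3. With Vorinostat it was 5.23, 2.56 and 3.13. The groups overlapped, but each Vorinostat value was below the DMSO value of its number, by 1.45, 2.49 and 0.35. The difference was -1.43, 2.69-fold lower (SE 1.06, unadjusted p = 0.231), and with the block its SE was 0.44 (limma unadjusted p = 0.029).

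MRPS5 encodes a small subunit protein of the bacterial type at the entry path of the messenger RNA. Its value was 5.45, 4.35 and 4.09 with DMSO and 4.92, 3.93 and 3.59 with Vorinostat. The differences within numbers were the most even among the 10 genes, at -0.53, -0.42 and -0.49. Its difference was -0.48 (SE 0.50, limma unadjusted p = 0.381), and it had the lowest blocked p of the members (SE 0.095, limma unadjusted p = 0.0067). The evenness and this blocked p rest on the matching of numbers 2 and 3, which the values did not settle. MRPS28, the mitochondrial relative of bacterial S1, read 6.67, 2.10 and 2.56 with DMSO. With Vorinostat it read 6.25, 1.67 and 1.79, a difference of -0.54 (blocked unadjusted p from limma 0.011). On numbers 2 and 3 all 4 of its values were below log2 3.

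The other genes called with the block encode large subunit proteins. MRPL1 lies in the stalk by which spent tRNA leaves, MRPL22 lines the exit tunnel of the new peptide, and MRPL19 is a further protein of the bacterial type. MRPL22 read 5.81, 4.14 and 3.50 with DMSO and 5.20, 2.94 and 3.25 with Vorinostat, a difference of -0.69 (SE 0.85). MRPL1 read 4.79, 3.08 and 3.05 against 4.06, 2.45 and 2.95, a difference of -0.49 (SE 0.65). MRPL19 was above log2 3 only on replicate 1, with 4.53 and 4.12, and its difference was -0.32 (SE 1.11).
MRPL46, MRPL49 and MRPL50 are proteins that occur only in mitochondrial ribosomes. MRPL46 read 4.81, 2.92 and 4.03 with DMSO and 4.62, 2.01 and 2.71 with Vorinostat, a difference of -0.81 (SE 0.82). MRPL49 read 4.20, 3.12 and 2.60 against 3.53, 2.44 and 2.45, a difference of -0.50 (SE 0.52). MRPL50, among the 3 members of lowest mean, read 2.73, 1.73 and 2.24 against 1.96, 1.29 and 1.87, a difference of -0.53 (SE 0.32). All values of MRPL50 lay below log2 3, and its other probe sets gave 0.23 (SE 0.43) and -0.09 (SE 0.10). In each of these genes the replicate 1 arrays carried the highest values of their group, and the groups overlapped.

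By place in the ribosome, the 50 large subunit members had a median difference of -0.27 with 34 below 0, and the 25 small subunit members -0.43 with 21 below 0. MRPS30 and MRPS18A were counted with the large subunit, where their proteins reside despite their names. The 30 large subunit genes of the bacterial type had a median of -0.24 and the 20 listed as specific to mitochondria -0.35. In the small subunit the medians were -0.37 for 15 genes of the bacterial type and -0.45 for 10 listed as specific to mitochondria. The specific lists include MRPS18A and MRPS18B, which are related to a bacterial protein but sit elsewhere in the mitochondrial ribosome. In the blocked fit 4, 4, 2 and 0 genes of these groups were lower at unadjusted p under 0.05 and none was higher, beside 3.12% lower of all genes and 9.35% of the brighter ones. Whether these groups differ from each other was not tested.

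In other members with large negative differences, single replicate numbers carried most of the difference. MRPS33, a small subunit protein found only in mitochondria, read 7.67, 2.98 and 1.61 with DMSO and 4.96, 1.95 and 1.88 with Vorinostat. Its difference of -1.16 (SE 1.80) was made of -2.71, -1.03 and 0.27 in numbers 1, 2 and 3. MRPS2, at the back of the small subunit, read 5.13, 2.18 and 2.05 against 2.65, 1.72 and 2.07, a difference of -0.97 (SE 0.90). The gap between its groups lay in number 1, at -2.49. MRPS12, a protein of the decoding centre, read 4.51, 3.58 and 2.10 against 4.26, 1.48 and 1.94, a difference of -0.84 (SE 0.96). Here number 2 gave -2.10 and the others -0.26 and -0.15. MRPL39, found only in mitochondria, had a difference of -0.66 (SE 0.95), with -1.49, -0.62 and 0.12 in the 3 numbers.
MRPS30 read 7.77, 5.28 and 1.74 with DMSO and 6.97, 2.26 and 3.65 with Vorinostat. Its differences by number were -0.80, -3.02 and 1.90, the widest spread among the genes named here, around a mean of -0.64 (SE 1.92). Without DMSO replicate 1 its difference was 0.78, and without Vorinostat replicate 2 it was 0.38. MRPS33, MRPS2 and MRPL39 also changed sign without DMSO replicate 1, to 0.63, 0.04 and 0.28. Without both number 1 arrays MRPS33, MRPS2, MRPL39 and MRPS30 stayed negative, at -0.38, -0.21, -0.25 and -0.56.

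The paralogues MRPS18A, MRPS18B and MRPS18C are relatives of a single bacterial protein, S18, of which the A form lies in the large subunit and the others in the small. Their differences were -0.61 (SE 0.48), -0.47 (SE 0.73) and -0.64 (SE 1.23). MRPS18B was lower in each number, by 0.90, 0.29 and 0.22 (blocked unadjusted p from limma 0.052). MRPS18A and MRPS18C were lower in numbers 1 and 2 and higher in number 3, by 0.16 and 0.49. MRPS18B changed sign without DMSO replicate 1, to 0.22, and was -0.26 without both number 1 arrays.

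Positive differences were small and rarely shared by the numbers. MRPL34, a counterpart of bacterial L34, read 2.87, 2.10 and 1.87 with DMSO and 3.52, 2.13 and 2.51 with Vorinostat. The groups overlapped, and the difference was 0.44 (SE 0.45, limma unadjusted p = 0.370, with the block 0.058). MRPL10, which holds the stalk that recruits translation factors, had 0.55 (SE 1.01), with 0.96, -0.45 and 1.13 in the 3 numbers. MRPL12 forms that stalk, and its difference was -0.38 (SE 0.59), with -0.21, -0.77 and -0.16 in the 3 numbers.
MRPL33 had a difference of 0.41 (SE 1.31), MRPL18 of 0.38 (SE 1.79) and MRPL32 of 0.27 (SE 1.52). For MRPL18, a protein of the central protuberance, the numbers gave -0.41, -0.82 and 2.35, the last from 2.13 on DMSO replicate 3 and 4.48 on Vorinostat replicate 3. Without DMSO replicate 3 the differences of MRPL10, MRPL33, MRPL18 and MRPL32 were -0.02, -0.30, -1.12 and -0.28.

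The members with the highest mean values were MRPL36, MRPS14, MRPL52, MRPS15 and MRPL18. A value is that of 1 probe set and gives no order of abundance among genes. MRPL36 read 7.72, 6.57 and 5.60 with DMSO and 8.13, 3.99 and 6.15 with Vorinostat, a difference of -0.54 (SE 1.16). Only Vorinostat replicate 2 lay below the DMSO range, and without it the difference was 0.51. MRPS14, MRPL52 and MRPS15 were likewise lowest on that array, with 4.88, 4.47 and 4.41. Their differences were -0.43 (SE 0.71), -0.11 (SE 0.88) and -0.49 (SE 0.83), and without that array 0.10, 0.56 and 0.08. The lowest means were those of MRPL2, MRPL58 and MRPL50. MRPL2, a protein near the peptidyl transferase centre, differed by -0.23 (SE 0.13), and MRPL58, which releases stalled peptides, by -0.32 (SE 0.47).

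Of the 75 members 38 were read by 1 probe set and 37 by several. In 18 of these 37 all probe sets of the gene had differences of the same sign and in 19 they did not. Every probe set that disagreed with the one used had a mean below log2 3. MRPL42, MRPL57, MRPL9 and MRPS22 each had a further probe set at or above that level, with the same sign. The widest disagreement was that of MRPS30, with -0.64 for the probe set used and 0.47 for another. MRPL47 followed with -0.40 and 0.62, and MRPS12 with -0.84 and 0.10. For MRPL12 the other probe set gave 0.02.

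**Figure D5:**
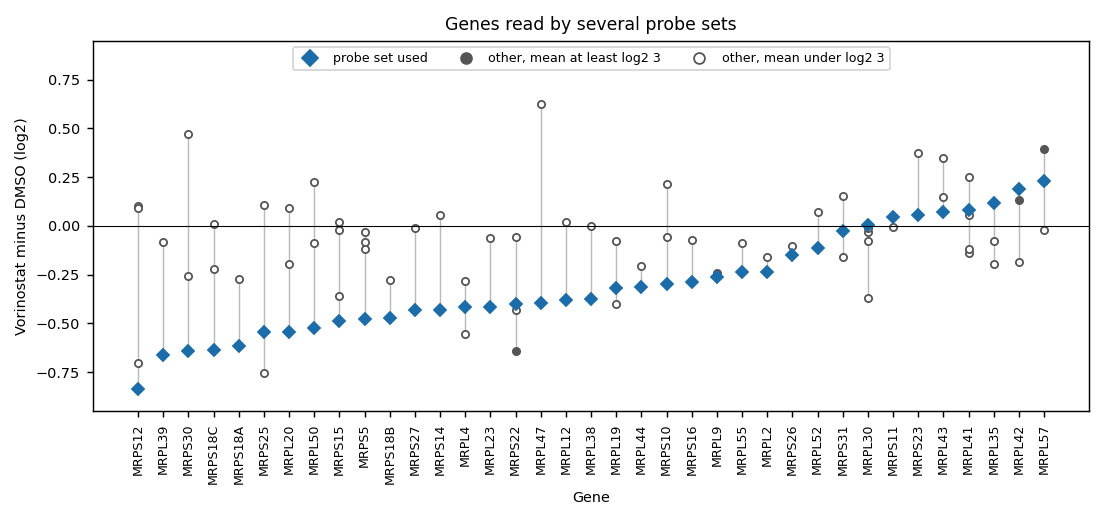
Log2 difference, Vorinostat minus DMSO, of every probe set of the 37 genes read by several. Blue diamonds are the probe sets used, filled circles others with a mean of at least log2 3 and open circles others below it. The open circles that lie across 0 from their diamond belong to 19 genes.

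Other genes of mitochondrial translation were described by lists. Of 5 measured genes for proteins of the ribosome or its partners that carry other names, GADD45GIP1 was lower at unadjusted p under 0.05 and none was higher. Of all genes 0.389% were lower and 0.602% higher, and 3.12% were lower with the block. GADD45GIP1, a large subunit protein at the exit of the tunnel, read 3.33, 2.79 and 2.22 with DMSO and 2.42, 1.34 and 1.47 with Vorinostat. It was lower in each number, with a difference of -1.04 (SE 0.41, limma unadjusted p = 0.049, adjusted p = 1.00, with the block 0.0037). On 5 of the 6 arrays it was below log2 3 and the groups overlapped. The median difference of the 5 listed genes was -0.10, and the positive difference with the smallest p was that of PTCD3, at 0.16 (SE 1.14).

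Of 13 translation factors and messenger RNA regulators none passed unadjusted p under 0.05 in limma with or without the block, and their median was -0.05. SLIRP, which stabilises mitochondrial messenger RNA, had -1.38 (SE 1.19) and MTIF3, an initiation factor, 0.14 (SE 0.42). Of 25 assembly factors none passed without the block, with a median of -0.13. With the block RPUSD4, DDX28 and TFB1M were lower at unadjusted p under 0.05, by 1.08, 0.36 and 0.30, and MTG2 was higher by 0.55, beside 3.12% of all genes lower and 2.25% higher. No adjusted p of the blocked limma fit was below 0.887. RPUSD4 modifies the ribosomal RNA of the large subunit and TFB1M that of the small. DDX28 is a helicase and MTG2 a GTPase of large subunit assembly. METTL15, a methyltransferase for the small subunit RNA, had the smallest p of the positive differences without the block, at 0.52 (SE 0.26).
Of 15 mitochondrial tRNA synthetases none passed without the block, with a median of -0.20. With the block RARS2, which charges arginine tRNA, was lower by 0.38 at unadjusted p under 0.05, beside 3.12% of all genes. The smallest p without the block belonged to AARS2, at -0.38 (SE 0.29), and among positive differences to PARS2, at 0.30 (SE 0.25). Of 16 genes of mitochondrial DNA replication, transcription and RNA processing none passed in either fit, and their median was 0.05. MTPAP, which adds poly(A) tails, had -0.87 (SE 1.34), and POLG, the mitochondrial DNA polymerase, 0.44 (SE 0.49).

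The cytosolic ribosomal protein genes differed in how they stood on the arrays. 50 of these 52 genes were above log2 3 on all 6 arrays, against 9 of 75 mitochondrial ones. Their median difference was -0.83, with -0.01, -2.26 and -0.36 in numbers 1, 2 and 3, beside -0.34, -0.60 and 0.12 for the mitochondrial genes. In the blocked fit 7 of 52, or 13.5%, were lower at unadjusted p under 0.05 and 0 higher, beside 13.3% of the mitochondrial genes, 3.12% of all genes and 9.35% of the brighter ones. Lower in each number were 20, or 38.5%, beside 25.3% of the mitochondrial genes, 13.7% of all genes and 19.5% of the brighter ones. The 10 measured housekeeping genes had a median difference of -0.59, with 0.04, -1.74 and -0.28 by number. In number 2 all 3 sets were thus lowest, and the difference between the sets was not tested.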

How the data were processed

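RNA of 6 OCI-AML3 samples, 3 per group, was hybridised to Affymetrix HG-U133 Plus 2.0 arrays. Per probe set and array, the authors deposited a log2 value; the scale was read from the values (0.868 to 13.76). The array files were handled in Partek Genomics Suite per the study's methods, while MAS5 and RMA are listed, with no role or order, in the submitters' processing notes. The values are not on 1 common distribution, so array brightness enters each difference. The table holds 54675 probe sets, of which 62 controls were left out. Of 54613 tested, 41091 name 1 gene, 1801 several and 11721 are unnamed here.

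Differences were tested with limma 3.58.1 in R 4.3.3 (lmFit, eBayes) over all 54613 probe sets, without further normalisation, filter or block, and p-values were adjusted by Benjamini-Hochberg. Both fits, with and without the block, were tested on simulated data with known differences. Log2 3 serves as a mark of low signal and was set for description. Deviations of same-numbered arrays from their group means correlated at 0.87, 0.60 and 0.67, all above 0.1. On that ground the numbers were taken to pair the arrays and blocked values are given. Numbers 2 and 3 are not told apart, since the crossed correlations were 0.59 and 0.69. Deviations within a group cancel, so the brighter number 1 arrays push numbers 2 and 3 to correlate in either matching. The 0.1 mark thus could not test the pairing of numbers 2 and 3. No source says that samples were separate cultures, so p-values measure the spread between these samples, and 3 arrays per group limit the precision.

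Members and lists were chosen with earlier results of these data known. Named were members at unadjusted p under 0.05 or past the study's threshold with the block, the 10 largest decreases and 5 largest increases, the 5 highest and 3 lowest means, the MRPS18 paralogues, MRPS36, MRPL12, up to 3 genes with disagreeing probe sets, and from lists those at unadjusted p under 0.05 or else the smallest p in each direction; genes called with the block or lower in every number were added after their values were seen. Symbols came from the platform annotation, and all 75 matched RefSeq. Promoters came from a RefSeq table. Alternatives were other scalings, a floor, the block, the methods' t-test, omission of arrays and other probe set choices.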

Additional observations from a re-analysis of the deposited data

How the results depend on the processing

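The 6 arrays set the limits: brightness differed by replicate number, 25 of 75 members had means below log2 3, and 3 arrays per group gave standard errors above most differences. The count lower at unadjusted p under 0.05 was 1 in the report. After quantile normalisation it was 3 (MRPL22, MRPL27 and MRPL39, against 1.18% of all genes), and with the replicate block 10 (3.12%). It was 0 with the floor (0.0202%), with the methods' t-test (0.673%) and with the mean over probe sets (0.263%). Among probe sets with a mean of at least log2 3 it was also 0, against 0.0296% of such genes. Leaving out 1 array gave 0 to 5, the latter without DMSO replicate 3 (MRPL2, MRPL38, MRPL54, MRPS25, MRPS34; 1.11%). The count higher, 0 in the report, was 1 after quantile normalisation (MRPL34; 0.996%) and 1 without both number 1 arrays (MRPL21; 2.24%). The count lower at the study's threshold was 1 after quantile normalisation (0.273% of all genes) and 1 with the replicate block (0.632%), MRPL27 in each, and 0 to 2 with 1 array left out (MRPS25 and MRPS34 without DMSO replicate 3, 0.288%). No alternative gave a member higher at the study's threshold or past adjustment. Negative differences numbered 15 (without DMSO replicate 1) to 74 (without DMSO replicate 3), 24 without Vorinostat replicate 2, and the median ran from -1.12 to 0.48. Without both number 1 arrays the median was -0.25 with 60 negative differences. The genes lower in every number, 19 in the report, were 4 at the floor and 22 after quantile normalisation. Those higher were 0 at the floor and 2 with the mean over probe sets, beside 1 in the report. No share of all genes under the same setting stands beside these counts of sign, so they describe no trait of the members alone. The causes were not tested.

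Of the named genes, MRPL52 turned to 0.21 after quantile normalisation, MRPL32 to -0.041 without both number 1 arrays, and MRPL47 to 0.11 as the mean over its probe sets. With 1 array left out the range crossed 0 for 16: MRPS33 (-2.39 to 0.63), MRPS2 (-1.51 to 0.035), MRPL39 (-1.27 to 0.28), MRPS30 (-2.23 to 0.78), MRPL36 (-1.56 to 0.51), MRPL52 (-0.87 to 0.56), MRPS15 (-1.16 to 0.080), MRPS14 (-1.14 to 0.10), MRPL58 (-0.62 to 0.18), MRPS18B (-0.95 to 0.22), MRPL12 (-0.90 to 0.049), MRPL47 (-1.97 to 1.09), MRPL32 (-1.13 to 1.36), MRPL10 (-0.35 to 1.23), MRPL33 (-0.72 to 1.36) and MRPL18 (-1.12 to 1.89). Each such omission left the groups with unlike replicate numbers, whose brightness differed. MRPL38 stayed negative, from -0.47 to -0.25, and with the floor it had no value, since all its values lay below it.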

Other observations

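Probe sets outside the 75 genes also read mitochondrial ribosomal or related transcripts. KGD4, long listed as MRPS36 and now known as a component of the 2-oxoglutarate dehydrogenase complex, read 6.74, 3.91 and 3.36 with DMSO and 6.27, 2.42 and 3.21 with Vorinostat. Its difference was -0.70 (SE 1.35), and it was lower in each number, by 0.47, 1.49 and 0.15. A probe set shared by MRPS24 and the readthrough gene URGCP-MRPS24 gave -0.52 (SE 1.47), with -0.45, -2.59 and 1.49 by number. A probe set shared by MRPL53 and CCDC142 gave -0.20 (SE 0.94).

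Of the members, 17 had a gene starting in the opposite direction within 500 bases before their start in the RefSeq table. For 12 the neighbour was measured, and in 5 both differences had the same sign. MRPL46 and MRPS11 start 320 bases apart and are both members, so this pair is counted from each side, with differences of -0.81 and 0.05. MRPL32 and PSMA2 also had opposite signs, at 0.27 and -0.64, as had MRPL57 and SKA3, at 0.23 and -0.50. So had MRPS18C and HELQ, at -0.64 and 0.11, MRPS27 and PTCD2, at -0.43 and 0.12, and MRPL30 and MITD1, at 0.005 and -0.034. The pairs that follow had the same sign. MRPL27 and EME1, a DNA repair endonuclease subunit, start 45 bases apart, with -1.43 and -0.22. MRPL49 starts 49 bases from FAU, which encodes a cytosolic ribosomal protein fused to a ubiquitin-like domain, with -0.50 and -0.63. MRPS12 starts 181 bases from SARS2, the mitochondrial seryl-tRNA synthetase, with -0.84 and -0.20. None of these neighbours passed unadjusted p under 0.05 in limma.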
